A study of Mus musculus with 12 samples.

Results

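Expression of Oxct1, Bdh1 and Acat1, the genes of 3 mitochondrial enzymes that make and use ketone bodies, was examined in subcutaneous white adipose tissue (scWAT) of mice kept warm or cold. The 3 genes were chosen by name, and all 3 were found among the 55401 genes counted in every library and passed the filter on low counts, which left 16540 genes tested. RNA was sequenced from scWAT of 12 female mice, 16 weeks old when treatment began, with 3 mice and 3 libraries in each of 4 groups. The groups were Jmjd1a +/+ (wild-type) mice at 30°C, named thermoneutral (TN) in the labels, wild-type mice at 8°C, named cold exposed (CE), and Jmjd1a HY/HY mice at the same temperatures. The HY allele encodes a JMJD1A protein, an eraser of histone H3 lysine 9 methylation, that lacks demethylase activity in every cell of the body, and the HY/HY females came from 1 knock-in line. All mice, controls included, were held at 30°C for 1 week before the treatment week, and the design asks how cold and the loss of this activity each bear on the transcripts of the tissue.

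Ketone bodies are small, water-soluble fuels that the liver makes from fatty acids and that other tissues oxidize. In synthesis, acetoacetyl-CoA and acetyl-CoA give rise to acetoacetate, and BDH1 reduces acetoacetate to beta-hydroxybutyrate. In use, BDH1 runs in the other direction, OXCT1 moves CoA from succinyl-CoA onto acetoacetate, and ACAT1 splits the resulting acetoacetyl-CoA into acetyl-CoA. OXCT1 is the step that commits a tissue to ketone body use, and ACAT1 also serves isoleucine breakdown and works in both directions.

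Uniquely aligned read pairs on the sense strand of genes totalled 13592629 to 26352081 per library, and each library at 8°C (13592629 to 17955584) held fewer than each library at 30°C (18305586 to 26352081). Transcripts listed for white adipocytes (Adipoq, Plin1, Lep, Fabp4 and Cfd) summed to 19096 to 44282 CPM (counts scaled to a common library size) in the 12 libraries. The tissue label calls for adipocyte transcripts, and most of this sum was Fabp4 and Cfd. Ucp1, the uncoupling protein of thermogenic fat, gave 0.116 to 4.57 CPM in the warm libraries, 5042 to 6048 CPM in cold wild-type and 211 to 903 CPM in cold HY/HY libraries, in the order the temperature labels call for. Kdm3a, the gene of JMJD1A, gave 35.6 to 61.6 CPM in all libraries, which does not check the genotype labels because the HY allele is not a deletion. A pair of libraries stood apart. Wild-type replicate 2 at 30°C held 1091 CPM of summed skeletal muscle transcripts (Acta1, Ckm, Myh4, Mylpf and Tnnt3) against at most 20.1 elsewhere, and HY/HY replicate 3 at 30°C had the highest summed white adipocyte transcripts (44282 CPM) and the lowest summed mammary epithelium transcripts (506 CPM). Many, though not all, tests of the enzymes that rest on them are also given with such a library left out. Ratios, correlations and most-alike genes use all libraries.

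Oxct1 (ENSMUSG00000022186) lies on chr15:4026428-4155344 on the plus strand, Bdh1 (ENSMUSG00000046598) on chr16:31422297-31458901 on the plus strand and Acat1 (ENSMUSG00000032047) on chr9:53580522-53610350 on the minus strand of GRCm38.p6, the RefSeq assembly that corresponds to mm10. Start sites were on hand for Oxct1 (1 entry) and Bdh1 (2 entries) in the RefSeq promoter table of GRCm38.p6, and Acat1 had none. The 250 bases before each start site are printed 5′ to 3′ to show the stretches that were searched for binding motifs, with each CpG pair in capitals.
Oxct1, chr15:4026178-4026427, plus strand: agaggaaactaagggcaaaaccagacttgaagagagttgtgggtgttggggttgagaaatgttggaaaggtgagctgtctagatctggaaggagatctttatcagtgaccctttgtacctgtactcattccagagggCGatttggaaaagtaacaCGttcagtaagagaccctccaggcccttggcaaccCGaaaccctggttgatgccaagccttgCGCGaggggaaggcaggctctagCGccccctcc
Bdh1, upstream start, chr16:31422047-31422296, plus strand: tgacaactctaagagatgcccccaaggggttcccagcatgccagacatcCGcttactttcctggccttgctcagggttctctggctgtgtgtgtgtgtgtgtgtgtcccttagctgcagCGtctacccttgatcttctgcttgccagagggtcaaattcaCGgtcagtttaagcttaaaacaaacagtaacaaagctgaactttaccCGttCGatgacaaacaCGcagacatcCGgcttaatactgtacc
Bdh1, downstream start, chr16:31428503-31428752, plus strand: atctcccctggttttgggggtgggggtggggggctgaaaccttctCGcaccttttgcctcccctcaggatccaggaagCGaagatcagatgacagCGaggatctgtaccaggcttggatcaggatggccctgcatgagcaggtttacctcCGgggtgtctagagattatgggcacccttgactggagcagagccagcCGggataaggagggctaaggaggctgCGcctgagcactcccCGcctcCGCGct
The Oxct1 stretch held 6 CpG pairs and the Bdh1 stretches held 7 and 9, beside a median of 6 over the same stretch of all 32851 promoters. None of the 5 motifs searched on both strands between 250 bases before and 50 after the start occurred in these 3 promoters, which says only that these letters are not in this window. The motifs were TCAAGGTCA (oestrogen-related receptor, in 0.423% of all promoters), AGGTCAAAG (the left part of a PPAR and RXR repeat, 0.426%), TGACGTCA (cAMP response element, 1.79%), GCATGCGC (NRF1 core, 2.71%) and CCGGAAGT (ETS, 3.89%). Long non-coding RNA genes overlap Oxct1 (BC037032) and Bdh1 (Gm15743), and the values below count sense-strand pairs only.

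The 3 enzymes were expressed at very different levels. Scaled by summed exon length, Acat1 gave 60.8 ± 17.5 CPM per kb (SD, n = 3) in the warm wild-type group, Oxct1 35.6 ± 4.52 and Bdh1 2.02 ± 0.848. The order Acat1, Oxct1, Bdh1 held in each of the 12 libraries, and the Acat1 to Oxct1 ratio of CPM in a library lay between 1.23 and 2.48. At 8°C, the length-scaled level of wild-type mice was 143 ± 17.2 CPM per kb for Acat1, 63.5 ± 3.16 for Oxct1 and 0.978 ± 0.197 for Bdh1. In HY/HY mice at 8°C it was 102 ± 8.59 for Acat1, 76.2 ± 17.6 for Oxct1 and 0.688 ± 0.0443 for Bdh1. Among related enzymes, Aacs, the cytosolic acetoacetyl-CoA synthetase that feeds acetoacetate into lipid synthesis, gave 101 ± 32.9 CPM per kb in wild-type mice at 30°C, and its libraries overlapped those of Acat1 in that group. Bdh2, the cytosolic dehydrogenase, gave 1.52 ± 0.50 CPM per kb in the same group, a level whose libraries overlapped those of Bdh1. The testis-type paralogs of Oxct1 were near 0, with at most 1 count of Oxct2a and at most 3 counts of Oxct2b in any library. Acat2 and Acat3, like Oxct2a and Oxct2b, are close copies of each other, and since only uniquely aligned pairs were counted, their own levels are uncertain.

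**Figure D1:**
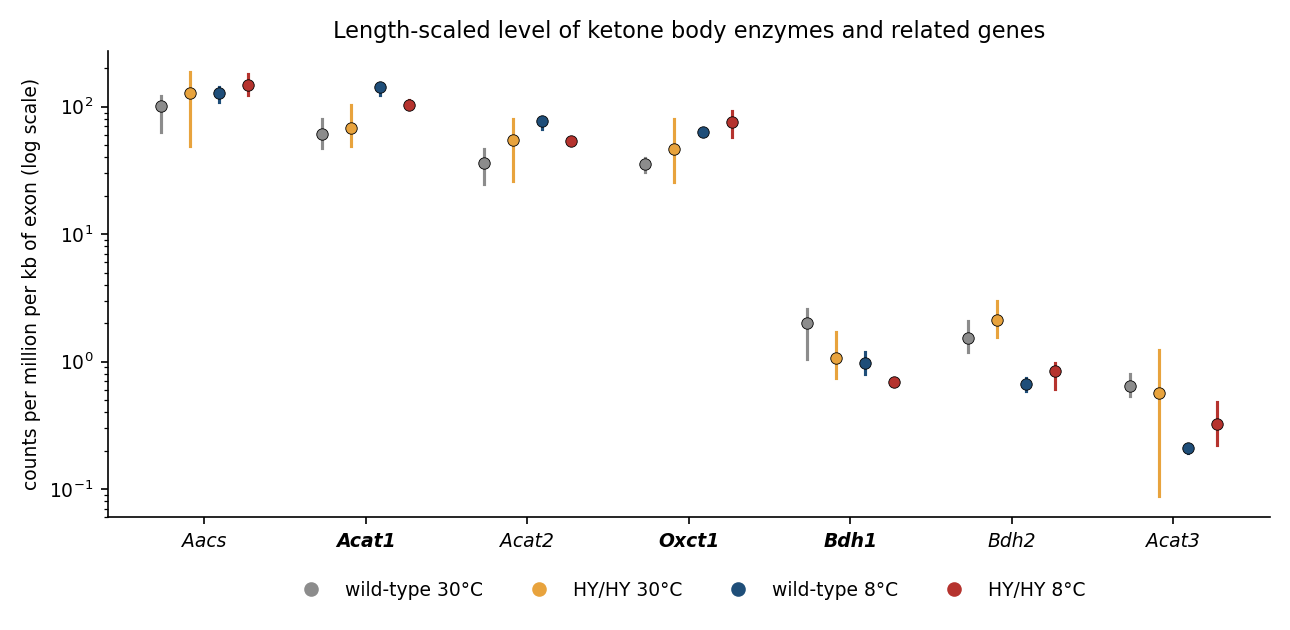
Length-scaled level of the 3 enzymes (bold) and 4 related genes in CPM per kb of exon on a log axis, by group, where points are means of 3 libraries and lines run from the lowest to the highest library. Acat1 and Oxct1 sit well above Bdh1 in all 4 groups, for example at 60.8, 35.6 and 2.02 CPM per kb in wild-type mice at 30°C.

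Acat1, the mitochondrial thiolase, rose in the cold in wild-type mice. It gave 178.5, 203.3 and 303.1 CPM in wild-type replicates 1 to 3 at 30°C and 463.6, 572.4 and 578.0 CPM at 8°C. Each wild-type library at 8°C exceeded each at 30°C, and 43.4% of all tested genes had libraries that did not overlap in this comparison. The increase was 2.36-fold (log2 1.24, SE 0.28, 95% interval 0.63 to 1.84) with an adjusted p of 0.00838 by edgeR's quasi-likelihood test, where 10.3% of all tested genes were called higher and 6.93% lower. Here and below a gene is called when its adjusted p, over all 16540 genes by the method of Benjamini and Hochberg, is under 0.05 and its fold is above 1.5 or under 0.67. In whole tissue, fewer cells of a type and less RNA per cell cannot be told apart. The summed thermogenic adipocyte transcripts (Ucp1, Cidea, Dio2, Cox7a1 and Elovl3) moved with this result, from 43.1 to 143 CPM at 30°C to 7633 to 8604 CPM at 8°C in wild-type mice with all 5 called higher. Endothelial transcripts (Pecam1, Cdh5, Kdr, Tie1 and Emcn) moved with it too, from 451 to 717 CPM to 854 to 1160 CPM summed, with 4 of 5 called higher and a median log2 of 0.71. Of the white adipocyte transcripts 2 of 5 were called lower (Lep and Cfd, median over the 5 of log2 -0.57). Of the skeletal muscle transcripts 4 of 5 were called lower, with 1091 CPM summed in wild-type replicate 2 at 30°C and at most 20.1 CPM in any other library. The part of these lists in the Acat1 result was not tested.

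In HY/HY mice Acat1 gave 194.7, 185.1 and 387.0 CPM at 30°C and 363.3, 368.7 and 421.7 CPM at 8°C. Replicate 3 at 30°C lay above the first pair of cold libraries, so the groups overlapped, whereas 18.3% of all tested genes did not. The difference was log2 0.59 (SE 0.27, 95% interval -0.01 to 1.19, adjusted p = 0.348 by edgeR) and was not called, where 0.181% of all tested genes were called higher and 0.0665% lower. Without HY/HY replicate 3 at 30°C it was log2 1.02 with an adjusted p of 0.0261 by edgeR and was called higher, so the result in HY/HY mice depends on that library. These are unpaired values. Libraries of the same number come from separate mice, and no label pairs them. Their deviations from group means went together weakly in HY/HY mice (r 0.11 to 0.30), so they were taken as pairs from these data alone. In these pairs Acat1 was higher in the cold in 3 of 3, a count with no share over all genes beside it. With the replicate number as a block the difference was log2 0.66 (adjusted p = 0.113 by edgeR) and was not called. Between genotypes at 8°C, the HY/HY libraries of Acat1 (363.3 to 421.7 CPM) all lay under the wild-type libraries (463.6 to 578.0 CPM), a separation that 35.4% of all tested genes showed. The difference of log2 -0.48 (SE 0.27, 95% interval -1.08 to 0.11) had an adjusted p of 0.333 by edgeR (0.0292 in a fit of the 8°C libraries alone, with a fold that lay inside the limits) and was not called, where 1.51% of genes were called higher and 4.42% lower in HY/HY mice. At 30°C the genotypes overlapped (log2 0.16, SE 0.27, adjusted p = 0.804 by edgeR), the libraries of 18.3% of tested genes did not, and 0.562% of genes were called higher and 0.441% lower. Without HY/HY replicate 3 at 30°C the sign of this difference turned, to log2 -0.26. The cold response of Acat1 differed between genotypes (HY/HY minus wild-type) by log2 -0.65 (SE 0.39, 95% interval -1.49 to 0.20, adjusted p = 0.466 by edgeR), where 0.169% of all genes passed with a higher and 2.07% with a lower value. It was -0.22 without HY/HY replicate 3 at 30°C, so a weaker Acat1 response in HY/HY mice was not shown.

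**Figure D2:**
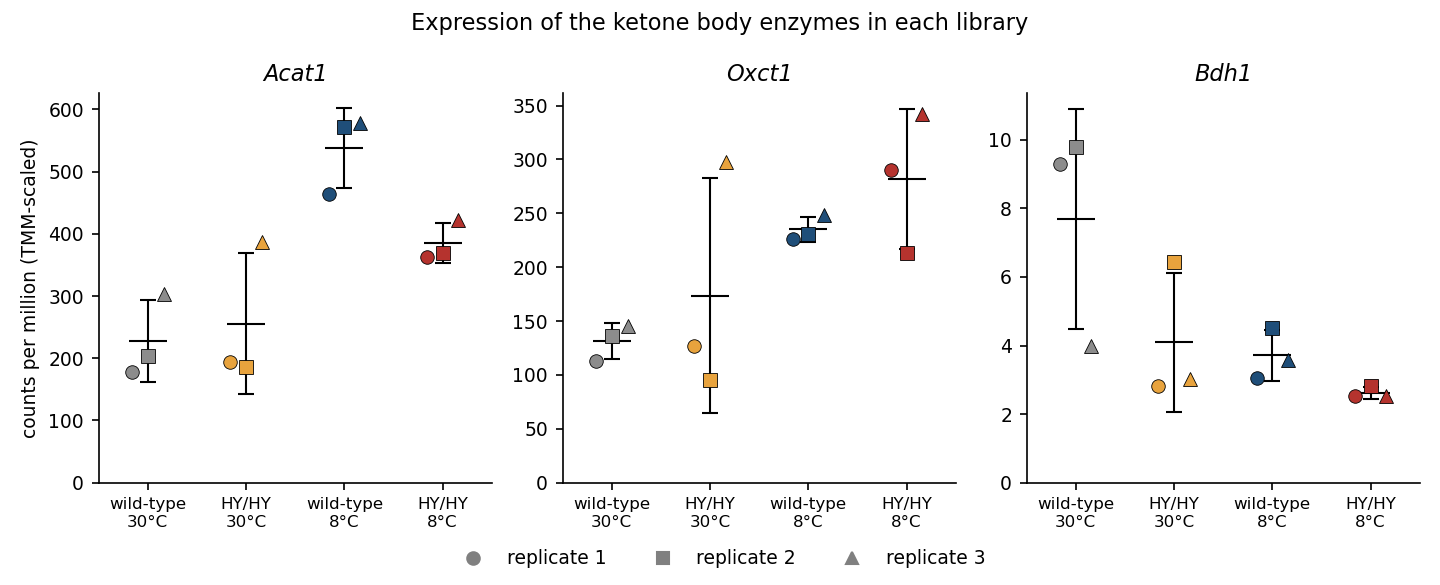
CPM of Acat1, Oxct1 and Bdh1 in each of the 12 libraries by group, where symbols mark the replicate number and bars the mean and SD of 3 libraries. Acat1 in wild-type mice lies at 178.5 to 303.1 CPM at 30°C and 463.6 to 578.0 CPM at 8°C, and HY/HY replicate 3 at 30°C stands above the other libraries of its group for Acat1 and Oxct1.

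Oxct1, the CoA transferase of ketone body use, gave 113.3, 136.4 and 145.8 CPM in warm wild-type mice and 226.5, 230.4 and 248.4 CPM at 8°C. All wild-type libraries at 8°C lay above those at 30°C, where 43.4% of all genes did not overlap, and the spread within each of these groups was small (SD 16.7 and 11.7 CPM, n = 3). The value at 8°C was 1.78-fold that at 30°C (log2 0.83, SE 0.34, 95% interval 0.10 to 1.57), with an unadjusted p of 0.0293 and an adjusted p of 0.0899 by edgeR, so it was not called. The call differed between fits. In a fit of the wild-type libraries alone the adjusted p was 0.00235, and with DESeq2 it was 0.0413. In HY/HY mice Oxct1 gave 127.2, 95.4 and 297.9 CPM at 30°C and 290.3, 212.9 and 342.4 CPM at 8°C. Replicate 3 at 30°C was 2.04 times the highest other library at 30°C of either genotype and lay among the cold libraries. The difference was log2 0.70 (SE 0.34, 95% interval -0.03 to 1.43, adjusted p = 0.361 by edgeR). Without that library it was log2 1.34 with an adjusted p of 0.00895 by edgeR and was called higher, and the wild-type response in the same fit was log2 0.84 with an adjusted p of 0.00538 and was called as well. Between same-numbered HY/HY libraries, paired from these data alone, Oxct1 was higher in the cold in 3 of 3, with no share over all genes beside it. The blocked difference was log2 0.79 (adjusted p = 0.164 by edgeR) and was not called.

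Between genotypes Oxct1 did not differ detectably. At 8°C the HY/HY libraries (212.9 to 342.4 CPM) spanned the wild-type libraries (226.5 to 248.4 CPM), and the difference was log2 0.26 (SE 0.33, 95% interval -0.47 to 0.99, adjusted p = 0.701 by edgeR). It was 0.10 without HY/HY replicate 3 and 0.43 without HY/HY replicate 2 at 8°C. At 30°C it was log2 0.40 (SE 0.33, adjusted p = 0.566 by edgeR) with all libraries and -0.24 without replicate 3 of HY/HY mice. The cold responses of the genotypes differed by log2 -0.13 (SE 0.47, 95% interval -1.17 to 0.90, adjusted p = 0.924 by edgeR), and its sign turned, to 0.50, without the same library. These intervals are wide, and a difference of up to about the size of the wild-type cold response lies inside the last of them.

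Bdh1, the beta-hydroxybutyrate dehydrogenase, was lowly expressed, with 31 to 272 counts per library. It gave 9.28, 9.8 and 3.98 CPM in warm wild-type mice and 3.04, 4.52 and 3.59 CPM at 8°C. Replicates 1 and 2 at 30°C stood above all other libraries of the study, while replicate 3 overlapped the cold libraries. The wild-type cold difference was log2 -1.05 (SE 0.37, 95% interval -1.87 to -0.24), with an unadjusted p of 0.0156 and an adjusted p of 0.0591 by edgeR, and was not called. In HY/HY mice Bdh1 gave 2.83, 6.43 and 3.01 CPM at 30°C and 2.52, 2.81 and 2.51 CPM at 8°C. The cold libraries all lay under the warm ones, the lowest warm library (2.83 CPM) by little, in a comparison where 18.3% of all genes did not overlap, and the difference was log2 -0.65 (SE 0.39, adjusted p = 0.464 by edgeR). With libraries left out in turn it lay between -0.86 and -0.15, the latter without replicate 2 at 30°C. The lowest adjusted p of any alternative, 0.261 by edgeR, came without replicate 3 at 30°C. Bdh1 was lower in the cold in 3 of 3 same-numbered pairs, as any pairing would give where libraries do not overlap. The blocked difference was log2 -0.58 (adjusted p = 0.364 by edgeR) and was not called. At 8°C the HY/HY libraries again lay under the wild-type libraries without overlap, as 35.4% of all genes did not overlap there, with log2 -0.50 (SE 0.40, 95% interval -1.37 to 0.36, adjusted p = 0.50 by edgeR). At 30°C the HY/HY value was log2 -0.91 against wild-type (SE 0.36, unadjusted p = 0.0280, adjusted p = 0.212 by edgeR) with overlapping libraries. It was -0.69 without wild-type replicate 2, -0.73 without HY/HY replicate 3 and -1.4 without HY/HY replicate 2, and was called in none of these fits. The cold responses of the genotypes differed by log2 0.40 (SE 0.54, 95% interval -0.77 to 1.57, adjusted p = 0.770 by edgeR), a value that lay between 0.19, without wild-type replicate 2 at 30°C, and 0.90, without HY/HY replicate 2 at 30°C, and was 0.23 without HY/HY replicate 3 at 30°C.

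Of the 3 enzymes, 1 was therefore called in wild-type cold (Acat1), and none in the other 4 comparisons, where edgeR gave 1 unadjusted p under 0.05 (Bdh1 between genotypes at 30°C) and DESeq2 also called none. In wild-type cold all 3 had an unadjusted p under 0.05 by edgeR. No share over all genes was on hand to set beside this count, so it is not a result about the enzymes. DESeq2 called all 3, Acat1 and Oxct1 higher and Bdh1 lower. Over all genes in that comparison edgeR called 10.3% higher and 6.93% lower (2854 genes), and DESeq2 called 3125. The exact permutation test over 3 against 3 libraries, which cannot go below 0.1, gave 0.1 for Acat1 and Oxct1 and 0.2 for Bdh1 in that comparison (two-sided).

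Ratios taken within a library do not depend on library scaling. The log2 ratio of Acat1 to Oxct1 was 1.19 ± 0.142 (SD, n = 3) in cold wild-type and 0.472 ± 0.278 in cold HY/HY mice, with no overlap between genotypes. The exact permutation p of this difference was 0.1, the smallest that 3 against 3 allows, and 0.24 after adjustment over the 12 ratio tests. At 30°C the same ratio was 0.762 ± 0.257 in wild-type and 0.649 ± 0.291 in HY/HY mice, and the genotypes overlapped. The log2 ratio of Oxct1 to Bdh1 went from 4.2 ± 0.865 at 30°C to 6.0 ± 0.290 at 8°C in wild-type mice with no overlap (exact permutation p = 0.1, adjusted 0.24), and from 5.34 ± 1.38 to 6.73 ± 0.436 with overlap in HY/HY mice. At 8°C this ratio was higher in HY/HY than in wild-type mice (exact permutation p = 0.1, adjusted 0.24). The libraries did not overlap, but the highest wild-type value (6.22) nearly reached the lowest HY/HY value (6.24). The log2 ratio of Acat1 to Bdh1 was higher at 8°C than at 30°C without overlap in both genotypes, by 2.23 in wild-type and 1.21 in HY/HY mice (exact permutation p = 0.1 and adjusted 0.24 for each). In HY/HY mice the highest library at 30°C (7.01) nearly reached the lowest at 8°C (7.04). No share over other gene pairs was on hand for ratios without overlap. At 8°C it was 7.19 ± 0.182 in wild-type and 7.2 ± 0.179 in HY/HY mice.

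Levels of the enzymes were set beside the summed transcripts of 9 marker lists, and several lists went with each enzyme. Over the 6 libraries at 30°C and the 6 at 8°C taken apart, Oxct1 had a Pearson r of 0.87 and 0.85 with the summed white adipocyte transcripts (log2 scale). The white adipocyte sum was mostly Fabp4 and Cfd, which in wild-type cold had log2 0.75 (not called) and -0.97 (called lower). Acat1 had 0.81 and 0.77 with the summed thermogenic transcripts. Oxct1 had 0.57 and -0.72 and Bdh1 -0.37 and 0.81 with that sum, signs that differ between temperatures. The thermogenic sum was mostly Cidea at 30°C and mostly Ucp1 at 8°C. Its r values at these temperatures therefore rest on largely different genes and do not show a single association. The r of Acat1 with the white adipocyte sum was 0.96 at 30°C, above that of Oxct1, and -0.30 at 8°C. With the erythrocyte transcripts (Hba-a1 and Hba-a2) Acat1 had 0.90 and 0.75, about as high as with the thermogenic sum. Bdh1 had 0.75 and 0.80 with the summed mammary epithelium transcripts (Krt8, Krt18, Krt14, Krt5 and Epcam) and -0.74 and -0.82 with the macrophage sum (Adgre1, Cd68, Csf1r, Mrc1 and Cd163). Oxct1 had -0.68 and -0.88 with the mammary sum. The points of each correlation share libraries, depth and groups, so the values are descriptions. The mammary sum was 1993 to 3606 CPM in warm and 1292 to 1450 CPM in cold wild-type libraries, and 506 to 1385 CPM in warm and 707 to 1190 CPM in cold HY/HY libraries. It was thus highest in the group where Bdh1 was highest, with 1 of its 5 genes called lower in wild-type cold, and its part in the Bdh1 values was not tested. Wild-type replicate 2 at 30°C, the library with muscle transcripts, had both the highest mammary sum and the highest Bdh1. Without it the wild-type cold difference of Bdh1 was log2 -0.84 with an adjusted p of 0.188 by edgeR, while that of Acat1 stayed called (log2 1.16, adjusted p = 0.0379 by edgeR).

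**Figure D3:**
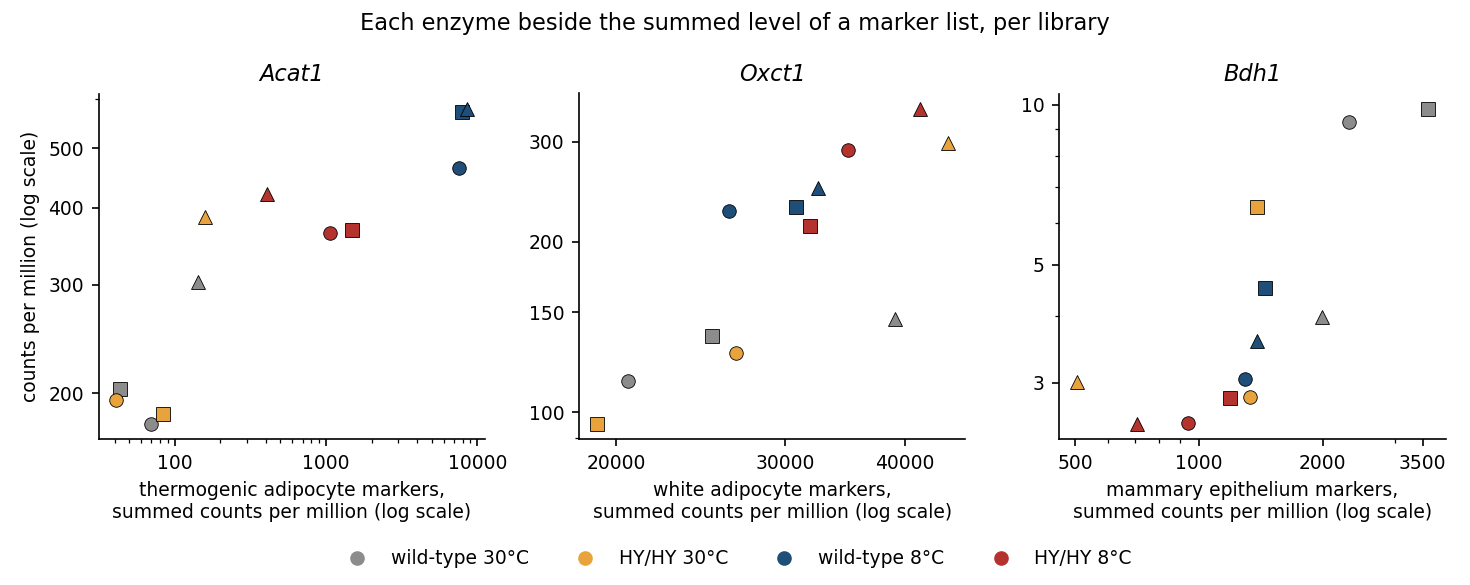
CPM of each enzyme in the 12 libraries against the summed CPM of a marker list, thermogenic adipocytes for Acat1, white adipocytes for Oxct1 and mammary epithelium for Bdh1, both axes on a log scale, with colours for groups and symbols for replicate numbers. Oxct1 and the white adipocyte sum are both highest in HY/HY libraries numbered 3, and Bdh1 and the mammary sum are both highest in wild-type replicate 2 at 30°C (9.8 and 3606 CPM).

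Other genes of ketone body metabolism, and of fatty acid oxidation, the citrate cycle, transport and regulation beside it, were taken from a list of 31. Of these 30 were matched and 26 tested, and they were grouped by role. The list was chosen with earlier results of these data known, so its counts, here and below, beside the shares of all genes are descriptions. In wild-type cold 14 rose and 1 fell, with a median log2 of 0.96 beside -0.069 over all genes tested, where 10.3% of all genes were called higher and 6.93% lower. Of the genes that bring fatty acids to acetoacetyl-CoA, 5 of 6 rose. Acaa2, the last thiolase of beta-oxidation, went from 110 to 172 CPM at 30°C to 1053 to 1119 CPM at 8°C (log2 3.03, SE 0.23, adjusted p = 1.71e-05 by edgeR). The trifunctional protein genes Hadha (log2 2.34) and Hadhb (log2 2.42) and the dehydrogenase gene Hadh (log2 1.52) rose as well. Cpt1b, the muscle-type carnitine transferase, rose from 1 to 3 counts to 60 to 74 counts, while the liver-type Cpt1a had log2 -0.09.

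In ketone body use and the steps beside it, 4 of the other tested genes rose with Acat1. Suclg1 (log2 2.80) and Sucla2 (log2 2.45), subunits of the succinyl-CoA ligase that shares succinyl-CoA with OXCT1, and Cs, the citrate synthase that takes up acetyl-CoA (log2 1.93), all rose more than the log2 1.24 of Acat1, though these differences between genes were not tested. Suclg2, the third subunit gene of the ligase, was not called (log2 0.41, SE 0.19, adjusted p = 0.132 by edgeR), nor was it between genotypes at 8°C (log2 -0.21). Acat2, the cytosolic thiolase, rose by log2 1.11 (SE 0.33, adjusted p = 0.0292 by edgeR), and Bdh2 fell by 1.19 on the log2 scale (SE 0.35, adjusted p = 0.0298 by edgeR). Both calls were lost without wild-type replicate 2 at 30°C (adjusted p = 0.105 and 0.126 by edgeR) and without each wild-type library at 8°C in turn, and that of Acat2 also without wild-type replicate 1 at 30°C. Aacs had log2 0.35 (SE 0.40, adjusted p = 0.552 by edgeR). Of the transport genes, Slc16a1, the MCT1 carrier of ketone bodies and lactate, rose from 25.5, 18.7 and 33.7 CPM to 181, 157 and 158 CPM (log2 2.68, SE 0.37, adjusted p = 5.02e-04 by edgeR). Bsg, its chaperone, rose by log2 0.81, a call that was lost with library totals in place of TMM, and the other 4 transport genes were not called. Of the receptors and regulators, Sirt3, a mitochondrial deacetylase, rose by log2 1.59 and Ppara, a driver of fatty acid oxidation, by log2 2.99. Fgf21, a hormone of fasting and cold, rose from 1 to 5 counts to 14 to 116 counts. Hcar2, the receptor for beta-hydroxybutyrate, had log2 -0.0001 (SE 0.36), and Ffar3 had no count in any library.

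In HY/HY cold, edgeR called none of the 26 (median log2 0.39 beside -0.015 over all genes), although 11 had an unadjusted p under 0.05, 10 of them higher, and DESeq2 called 5 (302 of all genes). In an edgeR fit of the HY/HY libraries alone, 1841 of 15780 genes had an unadjusted p under 0.05, 969 of them higher. That fit has its own filter and spread, so its share is not the background of the 11. With the replicate number as a block edgeR called 3 of the 26, and 160 of all genes in place of 41. Without HY/HY replicate 3 at 30°C edgeR called 6, and 664 of all genes. Slc16a1 in HY/HY mice gave 27.7, 22.2 and 25.8 CPM at 30°C and 87.2, 57.2 and 22.8 CPM at 8°C, so that replicate 3 in the cold lay in the range of the warm libraries. That library also had the lowest Ucp1 of the HY/HY cold libraries (211 CPM) but the highest Acat1 (421.7 CPM) and Oxct1 (342.4 CPM) of them.

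**Figure D4:**
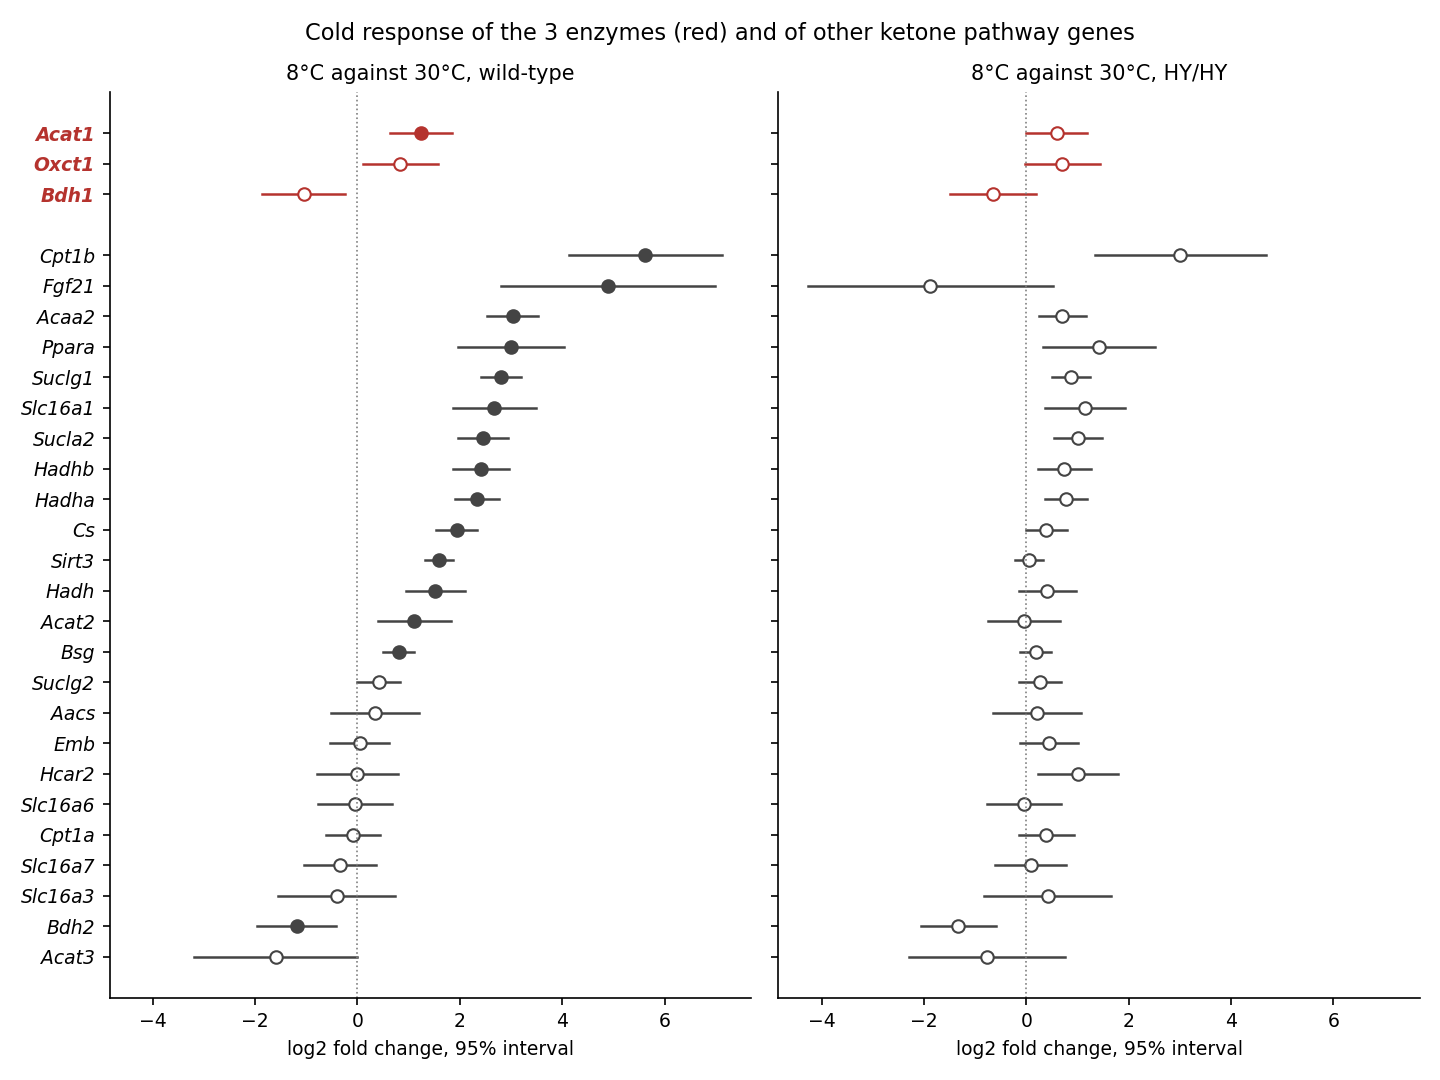
Log2 fold change of 8°C against 30°C with its 95% interval for the 3 enzymes (red) and tested pathway genes in wild-type (left) and HY/HY mice (right), where filled points were called by edgeR. Acat1 is filled in wild-type mice at 1.24, Bdh1 lies at -1.05 unfilled, and no point is filled in HY/HY mice.

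At 8°C, 13 of the 26 pathway genes were called lower in HY/HY than in wild-type mice and none higher, with a median log2 of -0.76 beside 0.012 over all genes, of which 4.42% were called lower and 1.51% higher. The balance over all genes depends on the scaling, since 249 were called higher and 731 lower with TMM and 535 and 480 with library totals. In the same comparison 4 of 5 thermogenic adipocyte transcripts were called lower (median log2 -2.63, summed 409 to 1491 CPM in HY/HY and 7633 to 8604 CPM in wild-type mice). Of the 5 macrophage transcripts 3 were called higher (median log2 1.17, summed 108 to 161 CPM in HY/HY and 61.0 to 63.4 CPM in wild-type mice). Of the 5 white adipocyte transcripts 1 was called higher (Lep, log2 1.99) and none lower, with a median log2 of 0.45. The part of these lists in the pathway counts was not tested. The 13 lower pathway genes were the genes that rose in wild-type cold with the exception of Acat2. Acaa2 gave 251 to 283 CPM in HY/HY and 1053 to 1119 CPM in wild-type mice (log2 -2.03, SE 0.22, adjusted p = 8.93e-04 by edgeR), Suclg1 had log2 -1.64, Sirt3 -1.35 and Slc16a1 -1.57 (SE 0.36, adjusted p = 0.0230 by edgeR). The Slc16a1 call was lost without each wild-type library at 8°C in turn and without HY/HY replicate 2 at 8°C, with an adjusted p of up to 0.0721 by edgeR. Oxct1 and Acat2 of this comparison stood at log2 0.26 and -0.54. At 30°C edgeR called none of the 26 between genotypes, 3 had an unadjusted p under 0.05 and DESeq2 called 1, while edgeR called 166 and DESeq2 683 of all genes. In an edgeR fit of the 30°C libraries alone, 1820 of 16390 genes had an unadjusted p under 0.05, again a separate fit and not the background of the 3. The cold response itself differed between genotypes, with a lower value in HY/HY mice, for 8 of the 26 (Acaa2, Hadha, Hadhb, Suclg1, Sucla2, Cs, Fgf21 and Sirt3), with a median log2 of -0.87 over the 26 beside 0.043 over all genes, of which 2.07% passed with a lower and 0.169% with a higher value. The comparisons share libraries, so the wild-type rise and the difference at 8°C are not independent of each other. For context, Ndufs8, Sdhb, Cox5a and Cyc1 of the respiratory chain rose in wild-type cold by log2 1.90 to 2.17 and Atp5b by log2 1.63.

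**Figure D5:**
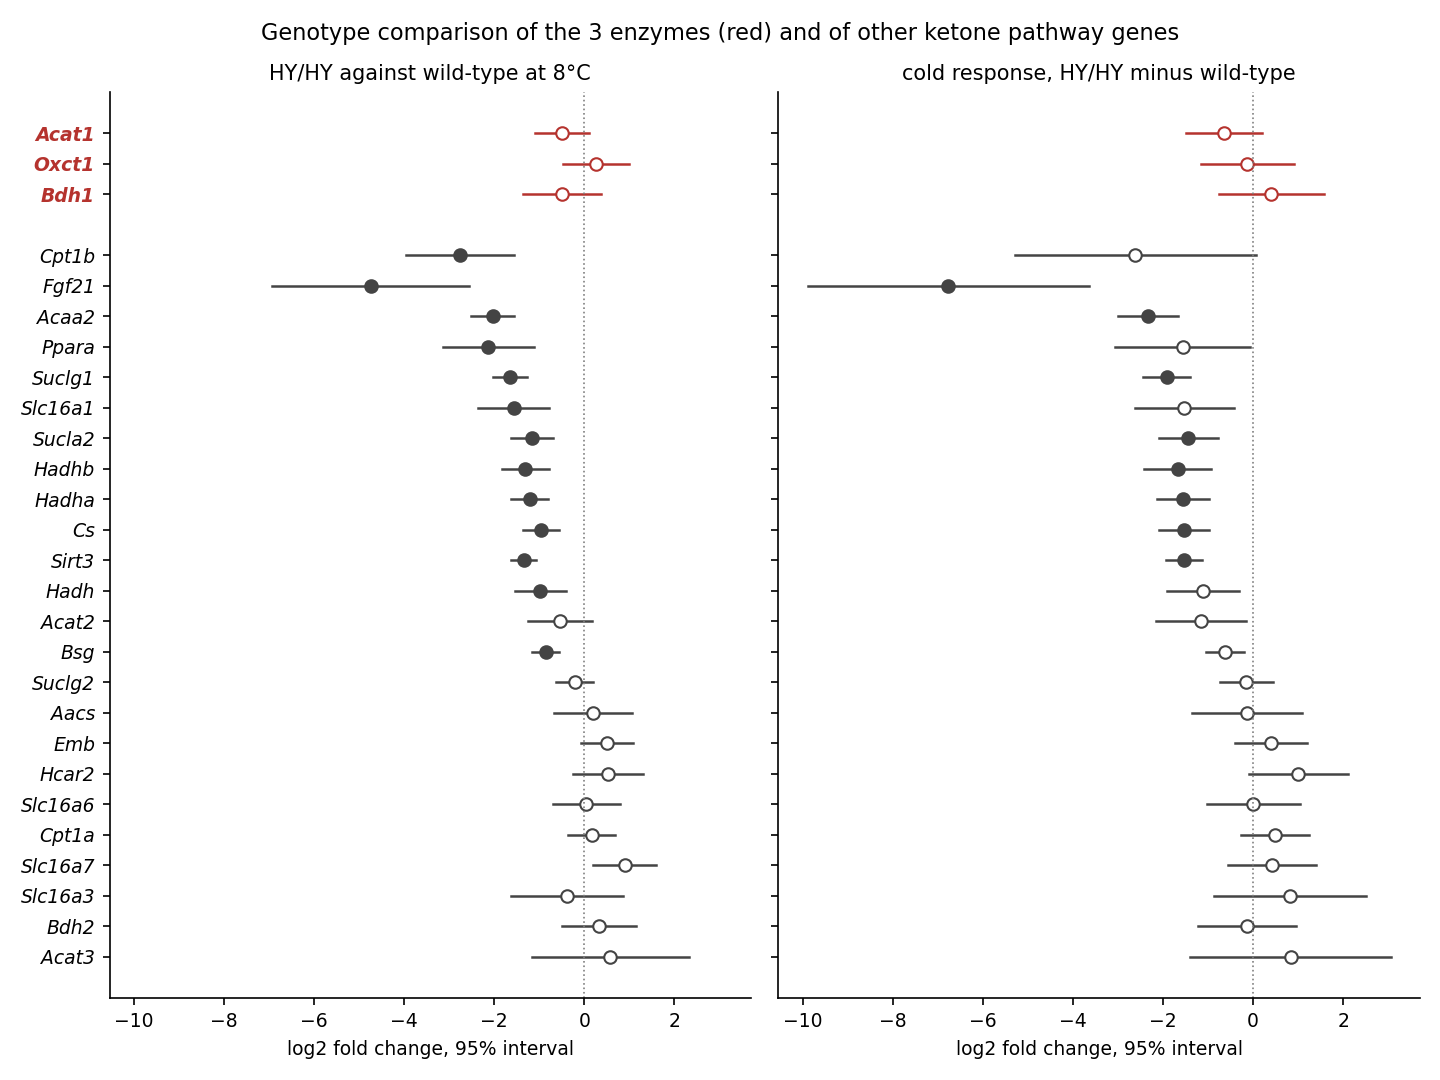
Log2 difference with its 95% interval between HY/HY and wild-type mice at 8°C (left) and between their cold responses (right) for the 3 enzymes (red) and tested pathway genes, where filled points passed the test by edgeR. The 3 enzymes are unfilled in both panels, at -0.48, 0.26 and -0.50 on the left for Acat1, Oxct1 and Bdh1, while 13 pathway genes are filled on the left and 8 on the right.

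The 3 genes whose log2 CPM followed each enzyme most closely over the 12 libraries, among 14599 compared, differed between the enzymes. For Acat1 they were Acads, the short-chain acyl-CoA dehydrogenase (Pearson r 0.989), Cpt2 (r 0.987) and Dnajc15 (r 0.985). For Oxct1 they were Aldh5a1 (r 0.974), Arl4a (r 0.974) and Tmem126b (r 0.960), and for Bdh1 Tox2 (r 0.933), Eif3m (r 0.928) and Vipr1 (r 0.928). Acads averaged 143 CPM in wild-type mice at 30°C, 351 at 8°C, 156 in HY/HY mice at 30°C and 236 at 8°C, the order of the Acat1 means. Aldh5a1 averaged 20.6, 36.4, 24.9 and 42.0 CPM in the same groups and, like Oxct1, had its highest mean in HY/HY mice at 8°C. Acads and Aldh5a1 were picked by their r over the same libraries, so these likenesses follow largely from that choice. Between the enzymes themselves r was 0.84 for Oxct1 and Acat1, -0.71 for Oxct1 and Bdh1 and -0.59 for Bdh1 and Acat1, all over libraries pooled across groups.

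Promoter entries were on hand for 22 of the 31 other pathway genes (23 promoters), and 5 of the 23 (21.7%) held at least 1 of the 5 motifs, beside 8.72% of all 32851 promoters. The matches of 4 genes that rose in wild-type cold and were lower in HY/HY mice at 8°C are printed 5′ to 3′ on the strand of the gene with the motif in capitals, to show where the letters lie. Of other genes with the same calls, Cs, Fgf21, Hadh, Hadha, Hadhb and Suclg1 held none of the motifs, like Oxct1 and Bdh1, so the matches do not set the enzymes apart from these genes.
Slc16a1, NRF1 core on the opposite strand, chr3:104638603-104638632, plus strand: ccaccccctgtGCGCATGCtccggcccccg
Ppara, NRF1 cores of both strands overlapping, chr15:85735734-85735765, plus strand: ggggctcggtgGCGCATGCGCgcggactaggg
Sirt3, ETS on the opposite strand, chr7:140882377-140882406, minus strand: agtgctcgctcACTTCCGGcaccgcgggcg
Sucla2, left part of a PPAR and RXR repeat, chr14:73552616-73552646, plus strand: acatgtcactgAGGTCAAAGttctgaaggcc
The fifth match was a cAMP response element before Ffar3, a gene with no count here. A match is a description of the sequence and not evidence of a factor's binding.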

How the data were processed

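The authors aligned paired-end reads of TruSeq libraries to mm10 with STAR after trimming, used GENCODE annotation, and deposited counts of uniquely aligned pairs per gene, of which the sense-strand column was used. FastQC and StringTie appear in the submitters' processing notes. Gene counts summed to 13592629 to 26352081 per library. Rows that name no gene did not enter library sizes or tests. As shares of all pairs, they held 25.1% to 28.8% unmapped, 26.7% to 32.2% multi-mapping, 1.99% to 3.20% without a gene and 0.930% to 1.10% ambiguous. Pairs from near-identical copies are therefore lost to the counts. Symbols came from a table that named 32589 of 55401 genes. Hmgcs1 of the pathway list and Hbb-bs of the erythrocyte markers were not matched. Results of some listed genes are not reported here, although the counts over the list include them.

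Counts were filtered with filterByExpr, scaled by TMM and fitted with edgeR 4.0.16 in R 4.3.3 (quasi-likelihood, 4 groups, 8 residual degrees of freedom, no covariate), and p-values were adjusted over all 16540 genes. CPM are TMM-scaled, and log2 CPM used a prior count of 2. Exon lengths are unions of GENCODE M1 exons, used as lengths only. Named genes were the 3 enzymes, listed pathway genes that were called or belong to the core pathway, and the 3 genes most like each enzyme by Pearson r of log2 CPM with a mean of at least 10 counts. Members and lists were chosen with earlier results of these data known. The fit was tested on simulated data. Replicates are separate mice. Deviations from group means of same-numbered libraries correlated at over 0.1 in all 3 pairs between HY/HY mice at 30°C and 8°C, which were taken as paired from these data alone, and not in all pairs of any other comparison. DESeq2 1.42.0, other scalings, filters, strands and libraries were tried as 21 alternatives.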

Additional observations from a re-analysis of the deposited data

Results flagged for a closer look

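None of Oxct1, Bdh1 and Acat1 passed the test of a different cold response between genotypes (adjusted p = 0.924, 0.770 and 0.466 by edgeR). Of the other pathway genes, 8 passed it with a lower cold response in HY/HY than in wild-type mice, where 2.07% of all genes did. The log2 difference was -2.33 for Acaa2, -1.55 for Hadha, -1.67 for Hadhb, -1.92 for Suclg1, -1.44 for Sucla2, -1.54 for Cs, -1.54 for Sirt3 and -6.77 for Fgf21. The Fgf21 value rests on 1 to 5 counts in warm wild-type and 2 to 3 counts in cold HY/HY libraries and is no measure of size. Of the respiratory chain genes given as context, Ndufs8 (-1.54), Sdhb (-1.43), Cox5a (-1.97) and Cyc1 (-1.73) passed as well. Atp5b did not (-1.05, adjusted p = 0.108 by edgeR). The results of Acaa2, Suclg1, Sirt3, Ndufs8, Cox5a and Cyc1 passed in each of the 20 alternatives run for this comparison. Those of Hadha, Hadhb, Sucla2, Cs, Fgf21 and Sdhb were lost in some fits that left a library out, with adjusted p up to 0.117 by edgeR. Hadhb and Sucla2 were lost without wild-type replicate 1 or 2 at 30°C or any library at 8°C, and Sdhb without the same libraries except wild-type replicate 1 and HY/HY replicate 2 at 8°C. Hadha was lost without wild-type replicate 1 at 30°C, wild-type replicate 2 or 3 at 8°C or HY/HY replicate 1 or 3 at 8°C. Cs was lost without wild-type replicate 1 at 30°C, wild-type replicate 3 at 8°C or HY/HY replicate 1 at 8°C. Fgf21 was lost in 8 of the 12 such fits, those without wild-type replicate 1 or 2 or HY/HY replicate 2 at 30°C, wild-type replicate 2 or 3 at 8°C or any HY/HY library at 8°C.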

How the results depend on the processing

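Acat1 in wild-type cold was called higher in all 21 alternatives (log2 0.91 to 1.5, highest adjusted p 0.0379 by edgeR). With all genes scaled by library totals in place of TMM, the median log2 of all genes in wild-type cold moved from -0.069 to -0.41 and 1057 genes were called higher and 4133 lower, against 1707 and 1147, so changes there are relative to that shift. In the interaction it moved from 0.043 to 0.25. Oxct1 in wild-type cold became called under DESeq2 (log2 0.87), with only the libraries of the comparison (0.85) and with the replicate block (0.84), and lay between 0.74 and 0.91 with libraries left out in turn, called without HY/HY replicate 2 or 3 at 30°C. It was lowest, at 0.50, with library totals. Bdh1 in wild-type cold became called with library totals (-1.42), DESeq2 (-1.02), no filter (-1.07), the replicate block (-1.0) and both strands (-1.14), and lay between -1.36 and -0.84 with libraries left out, called without wild-type replicate 3 or HY/HY replicate 2 at 30°C. With libraries left out in turn, HY/HY cold gave 0.40 to 1.02 for Acat1 and 0.41 to 1.34 for Oxct1, the genotype difference at 30°C -0.26 to 0.42 for Acat1 and -0.24 to 0.69 for Oxct1, and the Oxct1 interaction -0.43 to 0.50. The last turned positive without HY/HY replicate 3 at 30°C or replicate 2 at 8°C, and was 0.13 with library totals. The cause was not tested.

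Leaving out wild-type replicate 2 and HY/HY replicate 3 at 30°C together was chosen after seeing the data. It gave Acat1 log2 1.02 in HY/HY cold and -0.34 between genotypes at 30°C, and Oxct1 1.34 in HY/HY cold, 0.86 in wild-type cold, -0.22 at 30°C and 0.48 in the interaction. Pathway genes called were then 7 in HY/HY cold and 5 in the interaction, and all genes called 846 in HY/HY cold, 64 between genotypes at 30°C and 148 in the interaction.

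Pathway genes called in HY/HY cold (0 by edgeR) were 2 with library totals, 5 with DESeq2, 2 with no filter, 3 with the replicate block and 0 to 6 with libraries left out. Between genotypes at 30°C (0) they were 1 with DESeq2 and 0 to 1 with libraries left out, at 8°C (13) 8 to 14, and in the interaction (8) 3 to 9. All genes called in HY/HY cold (41) were 302 with DESeq2, 150 with no filter, 160 with the replicate block and 7 to 664 with libraries left out. With only the libraries of the comparison edgeR called 0, with 1841 at an unadjusted p under 0.05. Between genotypes at 30°C (166) they were 42 with library totals, 683 with DESeq2, 567 with no filter, 514 with the replicate block, 26 to 363 with libraries left out and 0 with only the libraries of the comparison (1820 at an unadjusted p under 0.05). In wild-type cold (2854) they were 5190 with library totals and 1901 to 3400 with libraries left out, between genotypes at 8°C (980) 1616 with only the libraries of the comparison and 344 to 1240, and in the interaction (370) 231 with library totals, 807 with DESeq2 and 67 to 651. Among pathway genes at 8°C, calls were lost by leaving out a library at 8°C for Hadh (any of the 6, and wild-type replicate 1 at 30°C), Ppara (wild-type 2 or 3, HY/HY 1 or 3), Fgf21 (wild-type 2 or 3, any HY/HY), Cpt1b (wild-type 3) and Cs (HY/HY 1).

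Deviations from group means correlated between same-numbered libraries from -0.069 to 0.35, over 0.1 in 11 of 18 pairs. With the replicate block the HY/HY cold values were log2 0.66 for Acat1, 0.79 for Oxct1 and -0.58 for Bdh1, none called, and the block made calls of Oxct1 and Bdh1 in wild-type cold, as given above, where the numbers did not pair all libraries. Bdh1, with 31 to 272 counts, is the enzyme most limited by depth.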
